A study of Mus musculus with 2 samples.

Results

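Sorted hypothalamic microglia were examined for cells that held transcripts of neuropeptide genes, which are genes of neurons. A cell was called a carrier when it held at least 1 UMI (unique molecular identifier, 1 captured RNA molecule) of Oxt, Avp, Pmch, Hcrt, Pomc, Agrp, Npy, Sst, Gal or Cartpt. Members were thus chosen by their peptide UMIs, so peptide shares and loads are given below as a description of that choice. Cells under 500 UMIs or 300 detected genes, or over 10% mitochondrial UMIs, were left out. The rule found 319 carriers among 20222 cells (1.58%).

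The cells came from wild-type young mice that had received dye-labelled plasma protein 20 hours earlier. Hypothalamic microglia were pooled over several mice and parted by flow sorting into a plasma-positive gate, whose cells held the dye, and a plasma-negative gate. Each gate gave 1 droplet library, so the gate and the library cannot be told apart, and no comparison between them carries a test. All intervals below are exact 95% intervals that cover counting error only, not the spread between mice, and UMIs of 1 cell are not independent of each other.

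Neuropeptides are made in neurons as long precursors, packed into dense secretory granules, and cut there by prohormone convertases. In the hypothalamus, magnocellular neurons make oxytocin or vasopressin, arcuate neurons make either the melanocortin precursor or agouti-related peptide with neuropeptide Y, and lateral neurons make melanin-concentrating hormone or orexin. Microglia are the resident macrophages of the brain, which take up cell debris and are not known as a source of these hormones.

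The plasma-negative library kept 9860 cells with a median of 3270.5 UMIs, and the plasma-positive library kept 10362 cells with a median of 3753. Carriers numbered 105 of the plasma-negative cells (1.06%, 0.872 to 1.29) and 214 of the plasma-positive cells (2.07%, 1.80 to 2.36). Their median depth was 3873 and 4118 UMIs, against 3264 and 3746 in cells with no peptide UMI. All 319 carried the microglial identity. Each held between 6 and 12 of 12 microglia markers, among them the purinergic receptor gene P2ry12 and the fractalkine receptor gene Cx3cr1, with medians of 12 in both libraries. The neuron list had UMIs of at least 4 of its 18 genes in none of the 105 carriers of the plasma-negative library and in 4 of the 214 of the plasma-positive library, with at most 7 genes in a cell. The same held for 2 of 9755 and 8 of 10148 cells without a peptide UMI. All kept cells were sorted as microglia, so no cell type that should lack these genes was at hand to give a free-RNA background. Barcodes outside the deposited cells, and barcodes shared between the libraries, were not analysed here.

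The smallest load that made a cell a carrier was 1 UMI, and the cells just outside the rule held 0. In the plasma-negative library 95 of 105 carriers held exactly 1 peptide UMI, 3 held 2 and 7 held 3 or more. The plasma-positive library had 147 with 1, 22 with 2 and 45 with 3 or more. Single molecules were therefore 90.5% of carriers in one library and 68.7% in the other. Cells with 10 or more peptide UMIs numbered 4 and 14.

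The 10 genes were divided into Pomc and the other 9 genes, which differed among themselves in load and in their ratio between libraries. This division was made after the values were seen. Cells in which Pomc was the only peptide gene are called Pomc-only carriers below, and cells with any UMI of the other 9 genes are called non-Pomc carriers. Pomc-only carriers were 82 plasma-negative cells (0.832%, 0.662 to 1.03) and 90 plasma-positive cells (0.869%, 0.699 to 1.07). Non-Pomc carriers were 23 plasma-negative cells (0.233%, 0.148 to 0.350) and 124 plasma-positive cells (1.2%, 0.996 to 1.43). The share of non-Pomc carriers was thus 5.13 times as high in the plasma-positive library (3.27 to 8.39). For all carriers together the ratio was 1.94 (1.53 to 2.47). Taken alone, Pmch, Hcrt and Cartpt had ratios with intervals that include 1.

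**Figure D1:**
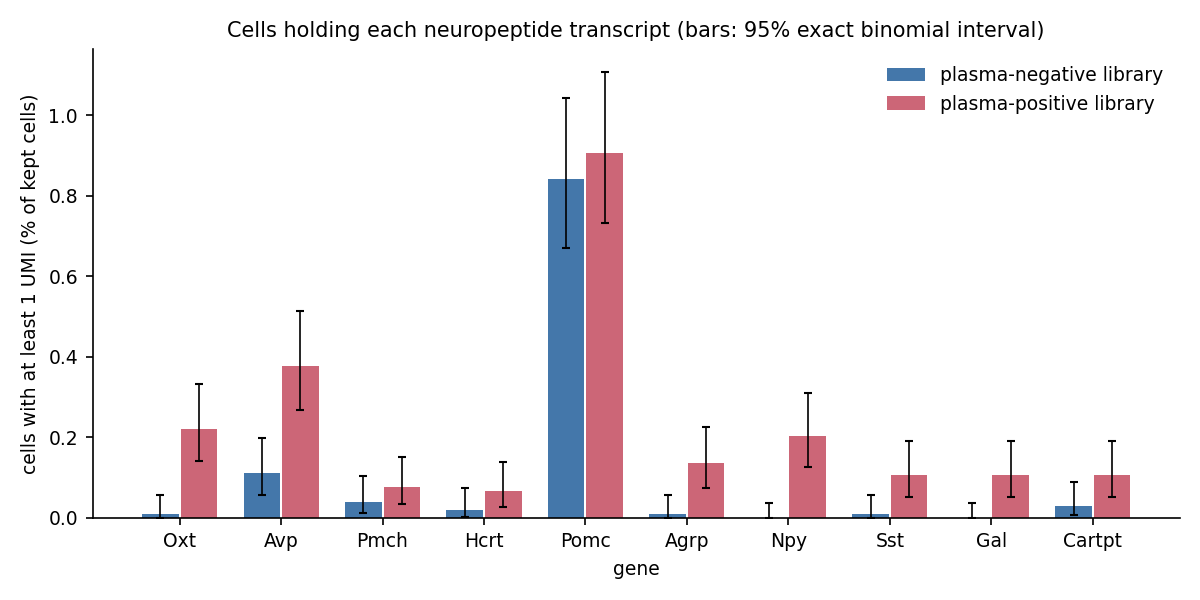
Share of kept cells (percent, vertical axis) with at least 1 UMI of each of the 10 genes (horizontal axis), in the plasma-negative and plasma-positive libraries, with exact 95% binomial intervals that cover counting error only. Pomc stands at 0.842% and 0.907%, while the other 9 genes are each at or below 0.112% in the plasma-negative library and between 0.0676% and 0.376% in the plasma-positive library.

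Oxytocin and vasopressin are the hormones of the magnocellular neurons, whose axons release them into the blood in the posterior pituitary. Their genes are neighbours with related sequences. In GRCm38, Oxt lies at chr2:130576173-130577054 on the plus strand and Avp at chr2:130580620-130582554 on the minus strand, with 3565 bases between them. The codons of the 9-residue hormones are shown because these transcripts gave the highest loads and because they must be told apart by sequence. Capitals mark the 5 bases that differ, read 5′ to 3′ from the GENCODE M21 transcripts.
Oxt: tgctacAtccagaactgcccCCTGggc
Avp: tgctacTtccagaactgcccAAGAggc
The longest stretch that both transcripts shared without a difference was 127 bases, in transcripts of 537 and 577 bases. It ended 255 bases before the end of the Oxt transcript and 307 bases before that of Avp. The kit reads near the 3′ end, and whether its reads reach this stretch was not tested. Whether any read was shared between the genes was not tested.

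The plasma-negative library gave a single Oxt UMI, whereas 23 plasma-positive cells held 274. Of these 274 UMIs, 90.9% lay in 5 cells. The highest cell held 129 Oxt UMIs of 3216 UMIs in all (4.01%) and 0 Avp UMIs. Another held 70 Oxt, 2 Avp and 3 Sst UMIs among only 911 UMIs, so that 8.23% of its RNA came from peptide genes, and it still held 7 of 12 microglia markers. A further cell held 36 Oxt and 53 Avp UMIs among 3223. With its 5 highest cells left out, the plasma-positive library still had 25 Oxt UMIs.

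Avp was the one gene with high loads in both libraries. Its 78 plasma-negative UMIs lay in 11 cells (0.112%) and its 312 plasma-positive UMIs in 39 cells (0.376%), a ratio of cell shares of 3.37 (1.69 to 7.30). In the plasma-negative library 6 of the 11 cells held 5 or more Avp UMIs, at 24, 15, 12, 12, 5 and 5. The 24 Avp UMIs lay in a shallow cell of 543 UMIs (4.42%) with 6 microglia markers. The plasma-positive maximum was 53, other high cells held 52, 51 and 39, and 68.3% of all UMIs lay in 5 cells. The cell with 39 had 636 UMIs in all, 6.13% of them from Avp. High loads thus occurred both in shallow cells and in deep ones, such as a cell of 11171 UMIs that held 51 Avp, 1 Oxt and 1 Gal UMI.

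**Figure D2:**
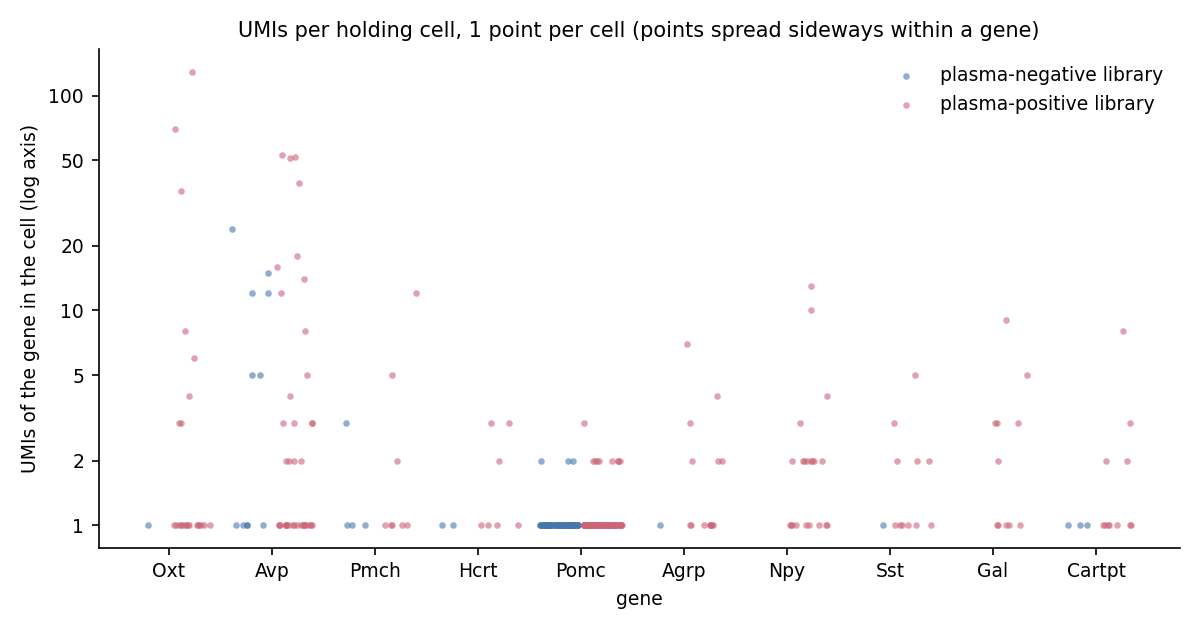
UMIs of each gene in each cell that held it (log axis), 1 point per cell, by gene and library, with points spread sideways only for display. Pomc never exceeds 3 UMIs in a cell, whereas Oxt reaches 129, Avp 53 and Npy 13 in the plasma-positive library, and Avp reaches 24 in the plasma-negative library.

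Arcuate feeding neurons fall into a hunger-promoting class with Agrp, an antagonist at melanocortin receptors, and Npy, and a satiety-promoting class with Pomc and often Cartpt. One plasma-negative cell held 1 Agrp UMI, and 14 plasma-positive cells held 28, with at most 7 in a cell. The ratio of cell shares was 13.3, with an interval of 2.03 to 563 because of the single plasma-negative cell. In GRCm38 the annotated Agrp gene (chr8:105566698-105637393, minus strand) overlaps several other genes, among them Ctcf and Ripor1, and the use of strand in the authors' counting is not given in the sources used here. Npy (chr6:49822710-49829507, plus strand) was not detected in the plasma-negative library, where a floor of 3 counts would be a share of 0.0304%. It had 55 UMIs in 21 plasma-positive cells (0.203%), 6.66 times that floor. The exact lower bound of the ratio of its cell shares was 4.96. Cartpt (chr13:99898489-99901091, minus strand) was found as 3 UMIs in 3 cells and as 22 UMIs in 11 cells of the respective libraries, a ratio of shares of 3.49 (0.922 to 19.5).

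The lateral hypothalamic peptides and the pair of Sst and Gal were rarer. Pmch, the precursor of melanin-concentrating hormone, had 6 UMIs in 4 cells of the plasma-negative library and 24 in 8 of the plasma-positive library, 12 of them in 1 cell. Its gene (chr10:88091072-88092375, plus strand) overlaps Parpbp on the other strand. Hcrt (chr11:100761069-100762931, minus strand), the orexin precursor, had 2 UMIs in 2 cells and 12 UMIs in 7 cells. The ratios of cell shares, 1.90 for Pmch (0.510 to 8.64) and 3.33 for Hcrt (0.634 to 32.9), both had intervals that include 1. Sst (chr16:23889573-23890958, minus strand), which encodes somatostatin, an inhibitor of growth hormone release, had 1 UMI in 1 cell and 20 UMIs in 11 cells (10.5, 1.52 to 451). Gal (chr19:3409915-3414544, minus strand), which encodes galanin, was not detected in the plasma-negative library and had 30 UMIs in 11 plasma-positive cells. Its share was 3.49 times the floor of 3 counts, and the exact lower bound of the ratio of cell shares was 2.39.

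Pomc (chr12:3954951-3960642, plus strand), the precursor of the melanocortins and of beta-endorphin, behaved otherwise. The libraries held 86 Pomc UMIs in 83 cells and 104 in 94 cells, or 2.49 and 2.48 CPM (UMIs of the gene per 1000000 UMIs of the kept cells). The ratio of cell shares was 1.08 (0.794 to 1.47). In the plasma-negative library 80 of its 83 cells held exactly 1 UMI and the maximum was 2. In the plasma-positive library 85 of 94 held 1 and the maximum was 3. The 5 highest cells held only 9.30% and 10.6% of the UMIs. Pomc UMIs were spread thinly over many cells, in equal measure in both libraries.

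The share of Pomc cells followed sequencing depth. When the cells of each library were divided into 5 groups of equal size by UMIs, Pomc was found in 0.406%, 0.507%, 0.761%, 1.27% and 1.27% of plasma-negative cells from the shallowest to the deepest group. The plasma-positive values were 0.482%, 0.724%, 1.01%, 1.11% and 1.21%. Non-Pomc carriers made up 0.203%, 0.304%, 0.0507%, 0.355% and 0.254% of the plasma-negative groups, with no such order. In the plasma-positive library they made up 0.965%, 1.21%, 0.965%, 0.965% and 1.88%, so that only the deepest group stood above the rest.

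With 5 depth groups set on both libraries pooled, the plasma-positive share of non-Pomc carriers was 3.96, 5.79, 5.68, 2.68 and 8.23 times the plasma-negative share. The lower bounds of the 5 intervals lay between 1.05 and 2.64. For Pomc the same ratios were 0.989, 1.14, 1.10, 0.824 and 0.935, each with an interval that includes 1. Thinning each cell to 1000 UMIs, with 796 and 603 shallower cells left out, gave non-Pomc UMIs in 6 of 9064 plasma-negative cells (0.0662%) and 53 of 9759 plasma-positive cells (0.543%). Thinned Pomc shares were 0.254% (0.161 to 0.381) and 0.154% (0.0861 to 0.253). At equal depth the excess in the plasma-positive library was still seen for the 9 genes as a group, and not for Pomc. Since the division was made after the values were seen, this contrast describes it and carries no test.

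**Figure D3:**
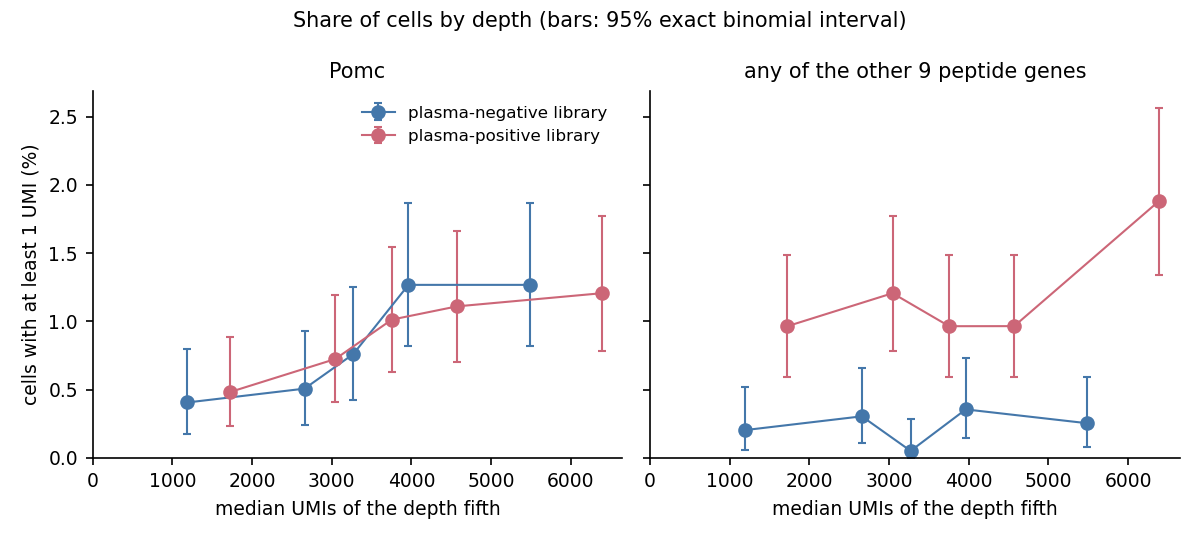
Percent of cells with at least 1 UMI of Pomc and of any of the other 9 genes (vertical axis) in 5 groups of equal size ordered by depth, plotted at their median UMIs, with exact 95% binomial intervals. For Pomc the lines of both libraries lie together and go from 0.406% to 1.27% and from 0.482% to 1.21%, while for the other 9 genes the plasma-positive points, at 0.965% to 1.88%, lie above all plasma-negative points.

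Summed over the 10 genes, peptide UMIs stood at 5.15 CPM in the plasma-negative and 21 CPM in the plasma-positive library, a ratio of 4.07 (3.46 to 4.81). Without Pomc the sums were 2.66 and 18.5 CPM, and the ratio was 6.95 (5.59 to 8.72). Because a few cells held much of the total, the 5 cells with the most peptide UMIs were left out of each library. The ratio was then 3.64 (2.95 to 4.52) for all 10 genes and 13 (8.57 to 20.5) for the 9. For the 9 genes, 5 cells were taken from 23 plasma-negative and from 124 plasma-positive non-Pomc carriers. They held 73.9% and 51.4% of the UMIs, so this unequal removal by itself raises the ratio above 6.95. Cells in which the 9 genes gave at least 0.1% of all UMIs numbered 8 and 29, and those at 1% or more numbered 1 and 5.

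Most carriers held transcripts of a single peptide gene. In the plasma-negative library 104 of 105 held 1 gene, and the remaining cell held 12 Avp UMIs and 1 Pomc UMI. In the plasma-positive library 192 of 214 held 1 gene, 19 held 2 and 3 held 3. Of the 45 possible pairs, 13 were seen together in at least 1 plasma-positive cell, 9 of them in 1 cell, Npy with Sst in 2 cells, and 3 pairs in 4 or more.

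Those 3 pairs are peptides that hypothalamic neurons are known to make together or in sister cell types. Agrp and Npy shared 8 cells. Npy was present in 57.1% of the 14 Agrp cells (28.9 to 82.3) and in 0.126% of cells without Agrp. Oxt and Avp shared 5 cells, with Avp in 21.7% of the 23 Oxt cells and 0.329% of the rest. These 5 cells held 111 Oxt and 160 Avp UMIs. The cell with 36 Oxt and 53 Avp UMIs held many of both. Another held 1 Oxt beside 52 Avp UMIs, and others described above were likewise uneven. Whether reads of one gene were counted for the other was not tested. Pomc and Cartpt shared 4 cells, with Pomc in 36.4% of the 11 Cartpt cells (10.9 to 69.2) and 0.869% of the rest. These 4 cells held 8 Pomc UMIs, at 3, 2, 2 and 1 per cell. The 2 cells with the most Npy also led in Agrp. One held 7 Agrp and 13 Npy UMIs, the other 4 and 10. A further cell held 9 Gal, 8 Cartpt and 14 Ghrh UMIs, Ghrh being the growth-hormone-releasing peptide of arcuate neurons and outside the rule. Another held 12 Pmch and 3 Cartpt UMIs, which lateral hypothalamic neurons can also make together.

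**Figure D4:**
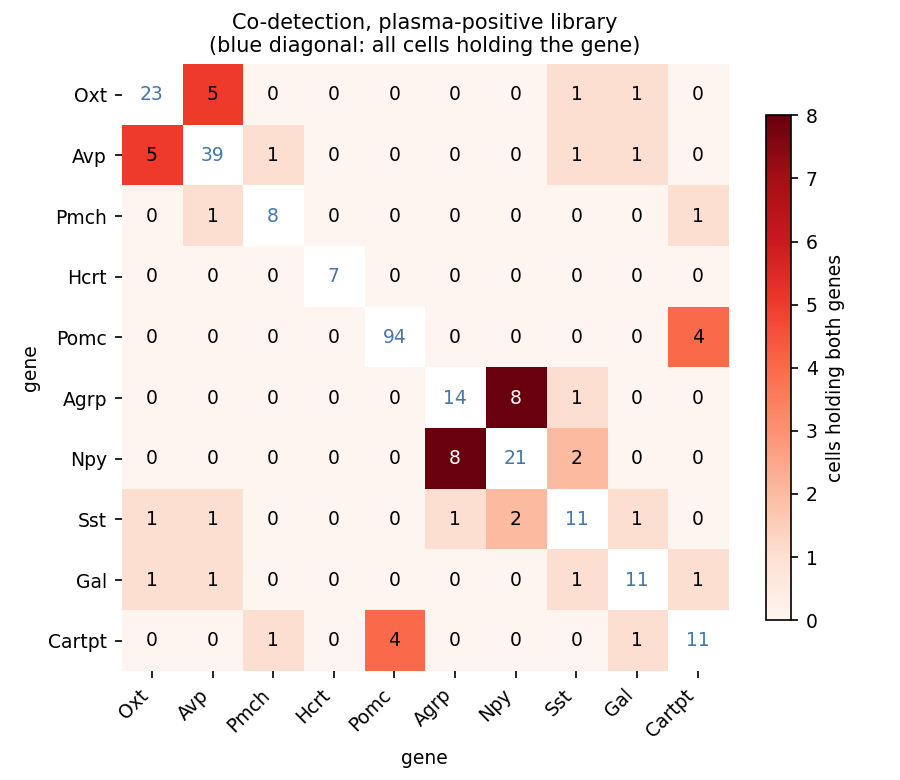
Number of plasma-positive cells (colour and digits) with at least 1 UMI of both genes of each pair, both axes listing the 10 genes, with the number of all cells holding the gene on the diagonal. Agrp with Npy (8 cells), Oxt with Avp (5 cells) and Pomc with Cartpt (4 cells) stand above all other pairs, each of which has at most 2 cells.

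The next question was which other transcripts the carriers held. Each carrier was set beside 20 cells of the same library and depth with no peptide UMI, and the 10 genes were left out. The granule list holds 12 genes of the regulated secretory pathway, among them the granins Scg2 and Chgb and the convertase inhibitor Pcsk1n. At least 1 UMI of it was found in 46 of 124 plasma-positive non-Pomc carriers (37.1%, 28.6 to 46.2) and in 42 of 2480 matched cells (1.69%, 1.22 to 2.28). The ratio of shares was 21.9 (14.1 to 34.1). The list held 104 UMIs in the carriers and 51 in the matched cells, a CPM ratio of 39.3 (27.9 to 56.1), and 28.2 without the 3 carriers that held the most.

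All 12 genes of the granule list were detected in these carriers, at 0 to 20 UMIs of the list per cell, against 0 to 8 in cells with no peptide UMI. Pcsk1n gave 32 UMIs against 15 in the 20-fold larger matched group (ratio 41.1, 21.6 to 81.7). Resp18, a granule protein of neuroendocrine cells, gave 31 UMIs in 21 carriers against 9 UMIs in 8 matched cells (66.4, 30.9 to 159). Pam, the enzyme that amidates peptide ends, gave 8 against 13 UMIs (11.9, 4.26 to 30.9). Scg5, a chaperone of a prohormone convertase, gave 7 against 3 (45, 10.3 to 270), and Scg2 gave 5 against 2. Chgb gave 8 UMIs in 4 carriers against 1 UMI.

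The neuron list, 18 genes outside the peptides, was found in 36 of the 124 carriers (29.0%, 21.2 to 37.9) and in 172 of 2480 matched cells (6.94%, 5.97 to 8.01). The ratio of shares was 4.19 (2.84 to 6.02). Its UMI ratio was 7.17 (5.51 to 9.25), and 5.50 without the 3 highest carriers. Stmn3, a neuronal microtubule regulator, gave 14 UMIs against 4 (67.5, 21.2 to 282). Stmn2, of the same family, gave 10 against 9 (21.4, 7.82 to 59.6), and Uchl1, a neuronal ubiquitin hydrolase, gave 13 against 21 (11.9, 5.49 to 25.0). Celf4, an RNA-binding protein of neurons, gave 14 against 86 (3.14, 1.65 to 5.56), and Syp, a synaptic vesicle protein, gave 9 against 33 (5.26, 2.21 to 11.2). The summed level stayed low, at 0 to 8 UMIs of the list per carrier and 0 to 7 in cells with no peptide UMI. Of the 18 genes, 13 were detected in the carriers, among them Snap25, Syt1, Gad1, Gad2 and Slc32a1. Rbfox3, Meg3, Snhg11, Slc17a6 and Nrgn were at 0. Neuron transcripts thus moved with the peptide transcripts, and their part in the peptide shares was not tested.

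Other cell types gave a mixed picture. The astrocyte or tanycyte list was found in 13 of the 124 carriers (10.5%) and 49 matched cells (1.98%), a ratio of 5.31 (2.64 to 9.93). Most of its carrier UMIs, 11 of 17, came from Mt3, a metallothionein that neurons also express, while Aqp4, Slc1a2 and Gja1 were at 0. The oligodendrocyte list did not stand out, with 48 carriers (38.7%) against 842 matched cells (34.0%) and a ratio of 1.14 (0.83 to 1.53). The endothelial list had 11 carriers against 344 matched cells, a ratio of 0.64 (0.32 to 1.16). Border macrophage genes were in 0 of 124 carriers and 41 matched cells, and pituitary hormone genes had no UMI in either group.

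The plasma-negative non-Pomc carriers numbered only 23. The neuron list was in 4 of them and in 19 of 460 matched cells, a ratio of 4.21 (1.04 to 12.7). The granule list was in 2 of them and 4 matched cells, a ratio of 10.0 (0.90 to 69.8). One of these 2 was the cell with 24 Avp UMIs, which held 1 Resp18 and 1 Pcsk1n UMI.

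Pomc-only carriers held far fewer of these transcripts. In the plasma-negative library the neuron list was in 1 of 82 carriers (1.22%) and 101 of 1640 matched cells (6.16%), and the granule list in 0 of 82 and 11 of 1640. In the plasma-positive library the neuron list was in 11 of 90 carriers (12.2%) and 111 of 1800 matched cells (6.17%), a ratio of 1.98 (0.96 to 3.69). The granule list was in 7 of the 90 (7.78%) and 33 matched cells (1.83%), a ratio of 4.24 (1.58 to 9.75). The granule share of Pomc-only carriers was thus above that of matched cells in the plasma-positive library, and below that of non-Pomc carriers, whose interval starts at 28.6%.

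**Figure D5:**
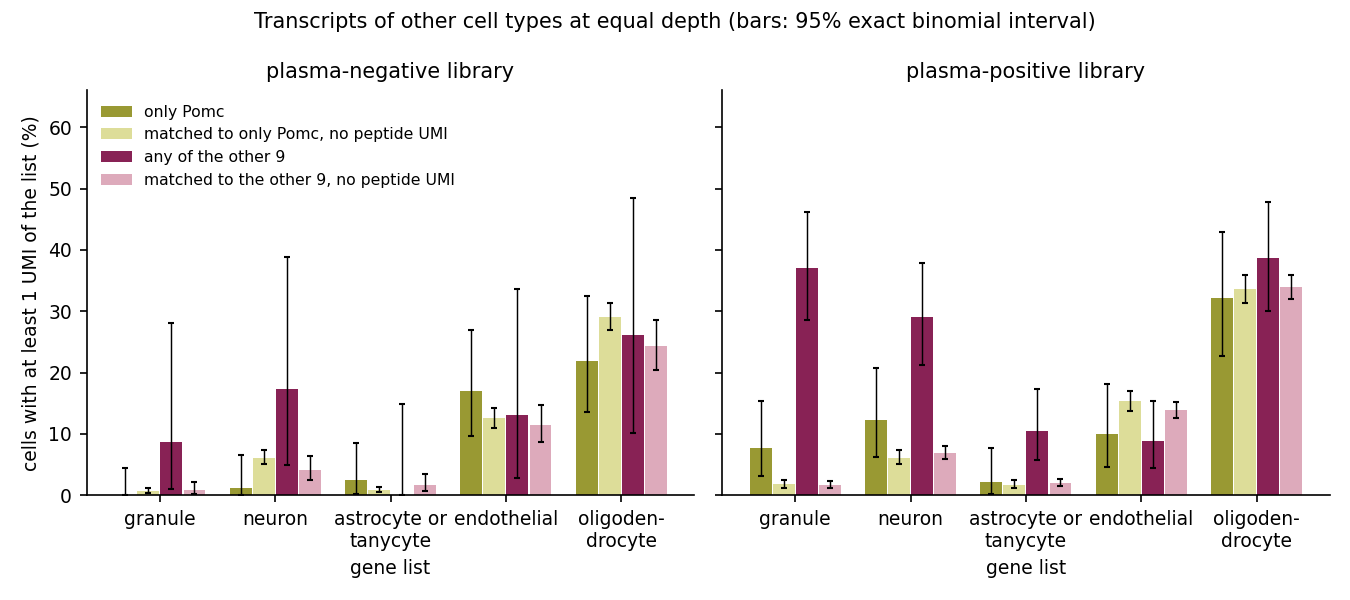
Percent of cells with at least 1 UMI of each of 5 gene lists (vertical axis), for Pomc-only carriers, non-Pomc carriers and cells of equal depth with no peptide UMI matched to each, by library, with exact 95% binomial intervals. In the plasma-positive panel the non-Pomc carriers stand at 37.1% for the granule list and 29.0% for the neuron list, against 1.69% and 6.94% in matched cells, while for the oligodendrocyte list they stand at 38.7% against 34.0%.

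The share of cells with granule transcripts went with the peptide load. Of the plasma-positive non-Pomc carriers, 65 held 1 UMI of the 9 genes and 59 held 2 or more. The granule list was present in 16.9% of the former (8.76 to 28.3) and 59.3% of the latter (45.7 to 71.9). It was present in 63.4% of the 41 cells with 3 or more and 71.4% of the 14 cells with 10 or more, and in 1.75% of all 10148 cells with no peptide UMI. The neuron list gave 13.8%, 45.8%, 48.8% and 57.1% in the same groups, against 5.79% in cells with none. The share with either list was 23.1% at 1 UMI and 69.5% at 2 or more. The median depth was 4035 UMIs at a load of 1 and 4225 at 2 or more, and the median mitochondrial share was 1.34% and 1.52%, against 1.27% in cells with no peptide UMI.

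Read from the other side, 105 plasma-positive cells held Pcsk1n or Resp18, and 35 of them (33.3%, 24.4 to 43.2) also held a UMI of the 9 peptide genes. Among the other 10257 cells the share was 0.868%, and among 105 of them matched by depth it was 0. In the plasma-negative library 14 cells held Pcsk1n or Resp18, and 2 of these held one of the 9 peptides.

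Among cells with no peptide UMI, the granule list was also higher in the plasma-positive library, by 2.39 times in CPM (1.84 to 3.14), and the neuron list by 1.25 times (1.11 to 1.41). Both ratios leave out the carriers, whereas the 6.95-fold ratio of the 9 peptide genes covers all kept cells, so their sizes cannot be compared directly. Peptide genes outside the rule differed in pattern among themselves. Nmb, neuromedin B, was found as 163 UMIs in 150 cells and 196 UMIs in 183 cells, thinly spread like Pomc. Gnrh1, the gonadotropin-releasing hormone gene, had 14 and 13 UMIs in as many cells. Ghrh had none in the plasma-negative library and 17 UMIs in 3 plasma-positive cells, 14 of them in 1 cell.

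Several microglial lists of the non-Pomc carriers summed close to the level of matched cells, and others did not. In plasma-positive non-Pomc carriers the 12 microglia markers summed to 1.00 times the level of matched cells (0.990 to 1.02), and in plasma-negative ones to 0.969 times (0.936 to 1.00). None of the 16 homeostatic genes differed by 1.5-fold in either library, where 4.04% of 6763 genes were higher and 5.87% lower by that size in the plasma-positive library, and 22.9% higher and 22.9% lower in the plasma-negative one. The lysosomal list, which includes the cathepsins, summed to 1.04 times (1.03 to 1.06) in the plasma-positive and 1.00 times (0.964 to 1.04) in the plasma-negative library. The uptake and phagocytosis list summed to 1.02 times (0.998 to 1.04) and 1.04 times (0.973 to 1.10). Peptide-degrading proteases, led by Ctsa and Tpp1, summed to 1.03 times (0.948 to 1.11) and 1.07 times (0.853 to 1.33). The antigen-presentation list was 1.22 times as high (1.17 to 1.28) in plasma-positive non-Pomc carriers, with none of its 6 compared genes past 1.5-fold. The chemokine list summed to 1.53 times (1.40 to 1.66) in the plasma-positive and 0.710 times (0.489 to 0.998) in the plasma-negative library. In the former, 3 cells held 42.7% of its carrier UMIs. The cell-cycle list summed to 0.634 times (0.517 to 0.769) and 1.32 times (0.757 to 2.15). The disease-associated list, with Apoe, stood at 7950 CPM in plasma-positive non-Pomc carriers and 6830 in matched cells. The plasma-negative values were 4385 and 5084 CPM. Of 21 neuropeptide receptor genes, 1 had UMIs in these carriers, Npy2r, with 2 UMIs in 2 cells.

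Apoe, the lipid-carrier gene that was higher in the plasma-positive library (6.92 times in cells with no peptide UMI), was examined next. At least 3 Apoe UMIs were found in 31 of 124 plasma-positive non-Pomc carriers (25.0%, 17.7 to 33.6) and 378 of 2480 matched cells (15.2%, 13.8 to 16.7), a ratio of 1.64 (1.10 to 2.37). The summed Apoe ratio was 1.68, and 1.09 without the 3 cells with the most Apoe. At least 3 UMIs of type I interferon response genes were found in 43 of the 124 (34.7%, 26.4 to 43.7) and in 27.7% of matched cells, a ratio of 1.25 with an interval that includes 1 (0.90 to 1.71). Their summed ratio was 1.70, and 1.08 without the 3 highest cells. Of the 12 interferon genes compared, 7 were past 1.5-fold higher and 0 lower, where 4.04% of all genes were higher by that size. Isg15, a ubiquitin-like antiviral protein, gave 79 UMIs in 17 carriers against 407 in 164 matched cells (3.74, 2.90 to 4.77). In the 23 plasma-negative non-Pomc carriers, Apoe gave 1 UMI in all and the interferon list summed to 0.449 times the matched level (0.273 to 0.697). Among the 124 plasma-positive cells, the 3 highest for each held 37.4% of the Apoe and 38.9% of the interferon UMIs. They were left out of the carriers only and not of the matched cells, which by itself lowers such a ratio. How far the summed ratios rested on a few cells was therefore not settled.

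Apoe and interferon transcripts were not spread evenly over the peptides, a grouping that was made after the values were seen. Of the 27 plasma-positive cells with Agrp or Npy, 17 held at least 3 Apoe UMIs (63.0%, 42.4 to 80.6), against 96 of 540 matched cells (17.8%), a ratio of 3.54 (1.98 to 5.97). Of these 27, 20 reached 3 interferon-list UMIs (74.1%, 53.7 to 88.9), against 28.3% of matched cells. Of the 57 cells with Oxt or Avp, 7 held at least 3 Apoe UMIs (12.3%, 5.08 to 23.7), against 14.6% of matched cells. Of these 57, 7 also reached 3 interferon UMIs (12.3%), against 26.5%. Granule transcripts were found in 15 of the 27 Agrp or Npy cells (55.6%, 35.3 to 74.5) and in 12 of the 57 Oxt or Avp cells (21.1%, 11.4 to 33.9), against 2.41% and 2.02% of matched cells. All 8 cells with both Agrp and Npy held granule transcripts, 6 of them at least 3 Apoe UMIs and 6 at least 3 interferon UMIs. None of the 5 cells with both Oxt and Avp reached 3 Apoe or 3 interferon UMIs. The difference between the peptide groups was not tested, since all these cells came from 1 library.

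Across all genes, carriers of both kinds, pooled, differed little from matched cells in a way that both libraries shared. With 1 matched cell per carrier, 48 genes were at least 1.5-fold higher in carriers in both libraries (0.747% of 6423 genes) and 55 were lower (0.856%). Each library alone gave more, with 11.4% of genes higher and 12.8% lower in the plasma-negative library, and 4.75% and 5.26% in the plasma-positive one. With 20 matched cells per carrier, which lowers the counting error of the matched group, 11 genes were higher (0.171% of 6434) and 25 lower (0.389%). Only 3 of the 48 and 11 of the 55 were in both counts. Of 3203 genes at 50 CPM or more, 1660 (51.8%) had the same sign in both libraries. The leading genes by the ranking rule were Ndfip1, a ubiquitin ligase adaptor, Snrpd1, a spliceosome core protein, Tmem141, Htra2, Fam53b, Smarce1, Slfn2, Babam2, March5 and Mrpl12 on the higher side. On the lower side they were Trim5, Tmem50b, Mgll, Ccl9, Tbc1d23, Ddx23, Far1, Stau1, Clock and Lage3. With 1 matched cell per carrier 5 of these 20 were past 1.5-fold in both libraries, and with 20 matched cells 0 were. In this pooled comparison, differences shared by both libraries outside neuronal and granule genes were mostly not detectable at this number of cells. Pomc-only carriers were 172 of the 319 pooled cells. The differences given above for plasma-positive non-Pomc carriers alone are not covered by it.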

How the data were processed

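Droplet single-cell 3′ RNA libraries of 2 sorted microglia fractions were used, 1 library per fraction. The deposited values are unnormalized UMI counts for each gene in each cell. Per the file headers they were made with Cell Ranger 6.1.2, whereas the submitters' processing notes name version 3.0.1. The genome build, annotation and cell-calling settings are not given in the sources used here. Gene positions were read from GENCODE M21 (GRCm38), which need not be the authors' build and which holds 31011 of the 31053 listed identifiers. Counts of the 35 symbols given to more than 1 identifier were summed by symbol in gene lists. The counts over all genes treated each identifier as a gene.

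Of 9878 plasma-negative and 10390 plasma-positive cells, 9860 and 10362 passed the limits of 500 UMIs, 300 genes and 10% mitochondrial UMIs, with 34534518 and 41984977 UMIs. The members and gene lists were chosen with earlier results of these data known. Matching drew cells with no peptide UMI from 20 bins of depth outside the 10 genes, with a fixed seed, 1 per carrier, and 20 per carrier as an addition made after seeing the data, as were the rule without Pomc and the values without the 3 or 5 highest cells. The 3 highest cells were left out of the carriers only, and the 5 highest out of each library. Levels are CPM (per 1000000 UMIs), outside the 10 genes in all comparisons of carriers. A gene was compared at 20 CPM or more and counted at 1.5-fold. Named genes are the 10 peptides, the 10 highest and 10 lowest by the smaller of both libraries' log2 ratios with the same sign at 50 CPM, the most abundant members of each list, and others said to be chosen after their values were seen. The rule of most abundant members was not kept to where a list is described by the members with the most UMIs in carriers. Intervals are exact Poisson, Clopper-Pearson or conditional binomial 95% intervals. No p-value was computed, since each group has 1 library. A floor of 3 counts served as a reference for genes at 0, and it is not an exact limit.

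Doublets were kept. Scrublet called 0 cells in either library at its automatic threshold and so had not worked. An alternative removed the 778 and 859 cells with the highest scores, at 0.8% per 1000 cells, among them 14 and 23 carriers. Other alternatives changed the depth limit, the peptide load, the genes of the rule, the matching, the seed, the total, the minimum level and the fold. The code was tested on simulated data. Python 3.11.15, numpy 2.4.6, scipy 1.17.1, pandas 2.3.3 and scanpy 1.11.5 were used.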

Additional observations from a re-analysis of the deposited data

How the results depend on the processing

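No paired analysis was possible because there is only 1 library on either side. Of 689 recomputed values, those that answer a comparison stayed near the reported value in 47 cases, moved in 41 and reversed in 2, and the others stayed in 462, moved in 128 and reversed in 9. The carrier shares of 1.06% (plasma-negative) and 2.07% (plasma-positive) were 0.101% and 0.647% at 2 or more peptide UMIs, 0.320% and 0.687% with cells thinned to 1000 UMIs, and 0.233% and 1.2% without Pomc. Without Oxt and Avp the plasma-positive share was 1.54%. The ratio of peptide levels between libraries, 4.07, was 7.27 at 2 or more UMIs, 2.45 without Oxt and Avp, and 6.95 without Pomc. The plasma-positive library was higher under each of these settings.

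The 48 genes higher and 55 lower in both libraries were 272 and 444 at 2 or more UMIs, 140 and 209 with thinned cells, 13 and 24 without matching, 11 and 25 with 20 matched cells per carrier, and 164 and 234 without Pomc. They were 134 and 143 at a minimum of 10 CPM, 8 and 6 at 50, and 318 and 424 at 1.2-fold. The lower count was 115 without the highest doublet scores, and the higher count 74 without Oxt and Avp. The cause was not tested.

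The granule list ratio in the plasma-negative library had no value at 1 matched cell per carrier, since no matched cell held a UMI of it. The neuron list ratio in the plasma-positive library, 5.60 at 1 matched cell per carrier, was 14.0 without Pomc. The plasma-negative ratio of 0.723 rests on 5 and 7 UMIs (interval 0.181 to 2.65) and has no settled direction, at 1.95 without Pomc, 1.00 with 50 bins and 0.270 at 1000 or more UMIs per cell. Apoe was unstable. Its plasma-negative ratio, 2.16, was 0.985 at 2 or more UMIs, 5.0 without Oxt and Avp, 1.56 with thinned cells, 1.26 with another seed and 0.0650 without Pomc. Its plasma-positive ratio, 0.999, was 1.66 without the highest doublet scores, 2.09 at 1000 or more UMIs per cell, 1.48 at 2 or more peptide UMIs, 1.17 with 50 bins, 1.53 with thinned cells, 1.48 without matching, 3.31 with another seed, 1.34 with 20 matched cells and 1.30 without Pomc. No direction of Apoe is reported for all carriers. Among named genes, the ratio reversed for Babam2 (0.998, plasma-negative, thinned cells), Mrpl12 (0.849, 2 or more UMIs), Mgll (1.06, without Pomc), Ccl9 (1.02 without the highest doublet scores, 1.15 thinned) and Lage3 (1.26 without those scores, 1.00 with another seed) in the plasma-positive library, and for Tbc1d23 (1.34 at 1000 UMIs per cell, 1.18 at 2 or more peptide UMIs) in the plasma-negative one. The cause was not tested.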
